A study of Mus musculus with 6 samples.

Results

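Segment boundary and somite polarity genes are the transcripts that mark where the next somite border will form, which end of a somite is rostral and which caudal, and which cells have entered the newly formed somite. The set was chosen by gene name and not by a cut on measured values, though with earlier results of these data known. It has 10 genes (Mesp1, Mesp2, Cer1, Pcdh8, Tbx18, Uncx, Meox1, Meox2, Tcf15 and Ripply1), with every probe set that the platform annotation assigns to exactly 1 of them. This gave 11 probe sets for 9 of the genes, out of 22626 probe sets and 12393 named genes. No probe set was assigned to Ripply1, whose expression is not analysed here. The study hybridised Affymetrix MOE430A arrays with RNA of tissue dissected around the presomitic mesoderm from mouse embryos of 9.5 days post coitum. There were 3 pools of embryos homozygous for the targeted neo allele of Dll3 (Dll3tm1Rbe/tm1Rbe, also written Dll3neo/neo, here Dll3neo) and 3 pools of wild-type embryos (Dll3+/+), all labelled as C57BL/6. The pools are biological replicates, and the sources used here do not give the number of embryos in a pool. All germ layers were present in the dissected piece, from which the allantois had been removed. The anterior cut was made at the border between presomitic mesoderm and the youngest somite in wild-type embryos and, in Dll3neo embryos, at the area that corresponds to that somite.

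Presomitic mesoderm is laid down at the tail bud and is cut into somites at its anterior end with a rhythm set by oscillating Notch, FGF and Wnt signals. At the anterior end, the transcription factor Mesp2 marks the next border and represses Notch activity, so that each somite is divided into a rostral part, which keeps Tbx18, and a caudal part, which keeps Uncx. Cells then become epithelial under Tcf15 and express the homeobox genes Meox1 and Meox2. Dll3 is a divergent Notch ligand, and mice without it are known for disordered somite borders and vertebral defects.

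None of the 11 probe sets passed the test for a change between Dll3neo and wild-type pools. Each was tested with limma on the log2 scale against all 22626 probe sets, and the adjusted p was 0.9999 for every one (threshold 0.05), where 1 probe set of all, or 0.00442%, passed. The 3 Dll3neo values overlapped the 3 wild-type values for all 11, where 5.03% of all probe sets had no overlap. By sign alone 9 were higher and 2 lower in Dll3neo pools, with a median log2 difference, Dll3neo minus wild-type, of 0.10. Over all probe sets 49.1% were higher and the median was -0.0021. The members' median was 0.040 without Dll3neo pool 2, 0.048 without wild-type pool 1, 0.16 without Dll3neo pool 3 and 0.17 without wild-type pool 2. The 95% intervals of the fold, Dll3neo over wild-type, together ran from 0.693 to 1.67, and 10 of the 11 intervals held no difference. In this bulk tissue, fewer cells of a type and less RNA per cell cannot be told apart. With 3 against 3 pools the smallest p an exact permutation test allows is 0.10, so single genes were not tested that way.

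**Figure D1:**
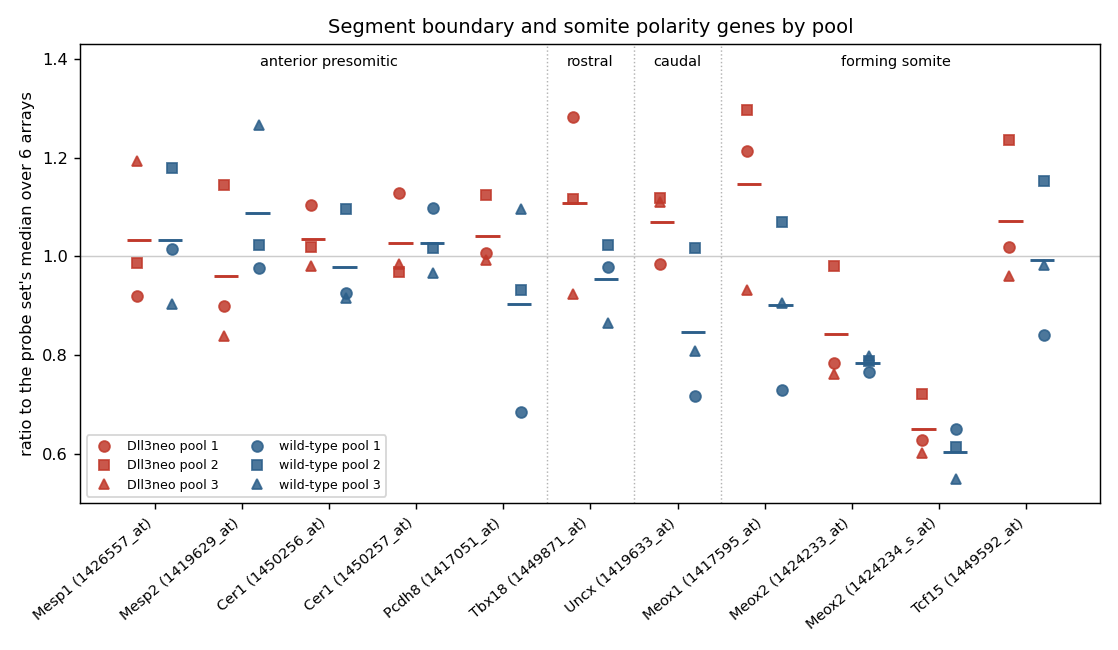
Deposited ratio of each member probe set (y axis; 1 is its median over 6 arrays), for 3 Dll3neo pools (red, left of each pair) and 3 wild-type pools (blue, right); symbols give the pool number and horizontal bars the group means. The red and blue points overlap for all 11 probe sets, and wild-type pool 1 lies lowest for Pcdh8, Uncx, Meox1 and Tcf15.

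Each deposited value relates 1 probe set on 1 array to that probe set's median across the arrays. It carries no absolute level, and neither the presence of presomitic markers nor the order of genes by abundance could be read. The targeted gene was checked first: Dll3 (probe set 1449236_at) had ratios of 0.480, 0.476 and 0.537 in Dll3neo pools, against 1.46, 1.63 and 2.01 in wild-type pools, and it fell by 1.76 on the log2 scale (limma adjusted p = 0.00691). No probe set passed when any single Dll3neo pool or wild-type pool 2 was left out, although the Dll3 values of the genotypes do not overlap. Whether that probe set reads inside or outside the region changed by the neo allele was not examined. Of 12 heart muscle marker genes read by 17 probe sets, the median ratio was 7.11 in Dll3neo pool 1 and at most 1.0 in each of the other 5 pools, the lowest being 0.854. The median ratio over all probe sets lay between 0.985 and 1.01 on the 6 arrays.

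The 5 anterior presomitic probe sets had a median log2 difference of 0.0011, with 3 higher and 2 lower in Dll3neo pools by sign. Mesp2, the basic helix-loop-helix factor that sets the segment border and rostral identity, had ratios of 0.899, 1.14 and 0.839 in Dll3neo pools, against 0.977, 1.02 and 1.27 in wild-type pools. Dll3neo pools 1 and 3 lay below all wild-type pools, while Dll3neo pool 2 was second only to wild-type pool 3. The means were 0.961 ± 0.162 in Dll3neo and 1.09 ± 0.155 in wild-type pools (SD, n = 3 each). The log2 difference was -0.18 with a 95% interval of -0.53 to 0.16, -0.071 without wild-type pool 3, -0.093 without Dll3neo pool 3 and -0.32 without Dll3neo pool 2. Mesp1, the paralog expressed with Mesp2 and also in early heart-forming mesoderm, had ratios of 0.919, 0.986 and 1.19 in Dll3neo pools, against 1.01, 1.18 and 0.903 in wild-type pools. The pool that was highest for Mesp2, wild-type pool 3, was the lowest for Mesp1, and Dll3neo pool 3 was the highest for Mesp1 and the lowest for Mesp2. Mesp1 averaged 1.03 ± 0.143 in Dll3neo and 1.03 ± 0.139 in wild-type pools (SD, n = 3 each), and its log2 difference was 0.0011, with an interval of -0.32 to 0.33. Dll3neo pool 1, with its high heart muscle values, had a Mesp1 ratio within the range of the other pools. The part of heart tissue in the Mesp1 values was not tested.

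The bases ahead of the Mesp2 and Mesp1 start sites are shown because the pools highest and lowest for one paralog were the lowest and highest for the other. The order of the other pools was not reversed: wild-type pools 2 and 1 lay above Dll3neo pool 1 for both genes. Both are from RefSeq (GRCm38.p6), 250 bases 5′ to 3′ on the strand of the gene, ending at the base before the start site. Mesp2 lies at chr7:79810477-79810726 on the plus strand and Mesp1 at chr7:79793591-79793840 on the minus strand. Capitals mark matches to 3 motifs searched on both strands: the E-box CANNTG, bound by basic helix-loop-helix factors, TGGGAA, a core of sites for the Notch effector RBPJ, and GTGTGA, a core of T-box sites.
Mesp2: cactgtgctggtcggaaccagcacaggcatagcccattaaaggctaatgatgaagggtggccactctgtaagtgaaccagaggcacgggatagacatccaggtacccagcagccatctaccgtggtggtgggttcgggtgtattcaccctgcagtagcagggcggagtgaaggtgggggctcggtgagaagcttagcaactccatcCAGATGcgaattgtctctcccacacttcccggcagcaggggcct
Mesp1: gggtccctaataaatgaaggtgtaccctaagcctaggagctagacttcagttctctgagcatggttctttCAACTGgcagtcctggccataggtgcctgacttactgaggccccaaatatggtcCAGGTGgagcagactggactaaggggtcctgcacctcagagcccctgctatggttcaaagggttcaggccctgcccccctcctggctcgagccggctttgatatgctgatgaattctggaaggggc
Mesp2 held 1 E-box, which begins 44 bases before the start site, and Mesp1 held 2, which begin 180 and 126 bases before it. Neither window held TGGGAA or GTGTGA. An E-box was present in 66.2% of 32851 promoters of the same length, TGGGAA in 21.6% and GTGTGA in 12.3%. Of the 8 members with a promoter in the table, 6 held an E-box, 2 held TGGGAA (Tbx18 and Meox2) and 1 held GTGTGA (Ripply1). A match is a description of letters and not a binding site.

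Cer1, a secreted inhibitor of Nodal and BMP ligands that is expressed in anterior presomitic stripes, was read by 2 probe sets. Probe set 1450256_at had ratios of 1.10, 1.02 and 0.981 in Dll3neo pools, against 0.925, 1.10 and 0.916 in wild-type pools. Probe set 1450257_at had ratios of 1.13, 0.968 and 0.984 in Dll3neo pools, against 1.10, 1.02 and 0.966 in wild-type pools. Both probe sets placed Dll3neo pool 1 highest and wild-type pool 3 lowest, but they put wild-type pool 1 at different places in the order. Their log2 differences were 0.083 (interval -0.18 to 0.35) and -5.7e-04 (interval -0.26 to 0.26). The value of 1450256_at was 0.035, 0.045 and 0.038 without Dll3neo pool 1, wild-type pool 1 and wild-type pool 3, and 0.17 without wild-type pool 2. They were the members with the narrowest spread over the 6 pools, a 1.205-fold and a 1.17-fold range. Pcdh8, paraxial protocadherin, a cell adhesion protein of the anterior presomitic mesoderm, had ratios of 1.01, 1.13 and 0.993 in Dll3neo pools, against 0.684, 0.932 and 1.095 in wild-type pools. The Dll3neo pools lay close together and wild-type pool 1 stood well below the rest. Pcdh8 averaged 1.04 ± 0.0725 in Dll3neo and 0.904 ± 0.207 in wild-type pools (SD, n = 3 each). Its log2 difference was 0.23 (interval -0.15 to 0.61), 0.042 without wild-type pool 1 and 0.38 without wild-type pool 3 (unadjusted p = 0.0309).

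The rostral and the caudal somite marker were both higher in Dll3neo pools by sign. Tbx18, the T-box factor that maintains the rostral somite compartment, had ratios of 1.28, 1.12 and 0.923 in Dll3neo pools, against 0.978, 1.02 and 0.864 in wild-type pools. Dll3neo pools 1 and 2 lay above all wild-type pools and Dll3neo pool 3 below 2 of them. The highest value was in Dll3neo pool 1, the pool with high heart muscle values, and the part of that tissue in the Tbx18 values was not tested. Tbx18 averaged 1.11 ± 0.18 in Dll3neo and 0.955 ± 0.0815 in wild-type pools (SD, n = 3 each), a log2 difference of 0.20 (interval -0.12 to 0.52), 0.092 without Dll3neo pool 1, 0.13 without wild-type pool 3 and 0.33 without Dll3neo pool 3. Uncx, the homeobox factor of the caudal compartment that is needed for the vertebral pedicles and proximal ribs, had ratios of 0.984, 1.12 and 1.11 in Dll3neo pools, against 0.716, 1.02 and 0.808 in wild-type pools. Dll3neo pools 2 and 3 lay above all wild-type pools, and Dll3neo pool 1 fell just under wild-type pool 2, so that 1 pair of values kept the genotypes from separating. Uncx averaged 1.07 ± 0.0749 in Dll3neo and 0.847 ± 0.154 in wild-type pools (SD, n = 3 each). By the limma log2 difference Uncx was 1.28-fold higher in Dll3neo. It was the 1 member whose interval did not hold 0, at 0.026 to 0.68 around a log2 difference of 0.35. Its unadjusted limma p of 0.0370 was the smallest of the members, and 1.16% of all probe sets had an unadjusted p under 0.05. Without wild-type pool 1 the difference was 0.24 (unadjusted p = 0.136), and without wild-type pool 2 it was 0.49 (unadjusted p = 0.00845). The unadjusted p was also above 0.05 without Dll3neo pool 2 (0.0994), Dll3neo pool 3 (0.0975) or wild-type pool 3 (0.0709). It stayed under 0.05 without Dll3neo pool 1 (0.0385), with quantile normalization (0.0417) and with the replicate number as a block (0.0191). With array weights, which rested almost wholly on wild-type pool 2, the difference was 0.086 (unadjusted p = 0.413).

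Within a pool, log2 Tbx18 minus log2 Uncx compares the transcripts of the rostral and the caudal marker, each relative to its own median. It was 0.38, -0.0026 and -0.27 in Dll3neo pools 1, 2 and 3, against 0.45, 0.0085 and 0.097 in wild-type pools 1, 2 and 3. The groups overlapped widely. The mean was 0.038 ± 0.325 in Dll3neo and 0.185 ± 0.234 in wild-type pools (SD, n = 3 each), a difference of -0.15 that is smaller than either SD. It was 0.0045 without Dll3neo pool 3, -0.015 without wild-type pool 1 and -0.32 without Dll3neo pool 1. The part of somite cells in either transcript of this bulk tissue was not tested.

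**Figure D2:**
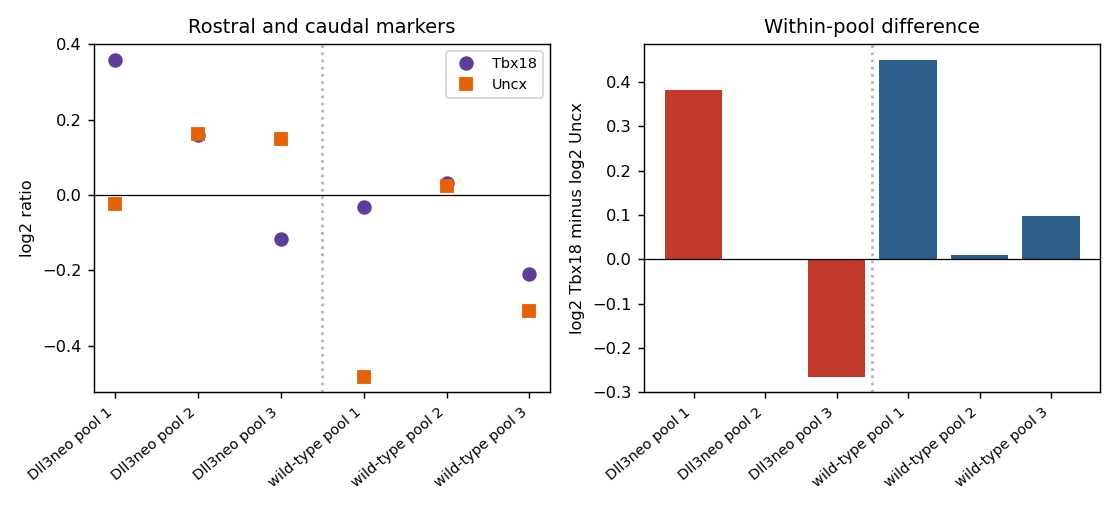
Left, log2 ratio of the rostral marker Tbx18 (circles) and the caudal marker Uncx (squares) in each pool; right, their within-pool difference (bars, red for Dll3neo and blue for wild-type). The difference runs from -0.27 to 0.38 in Dll3neo pools and from 0.0085 to 0.45 in wild-type pools.

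The bases ahead of the Tbx18 and Uncx start sites are shown as the pair of rostral and caudal marker. They are from the same RefSeq promoter table and 250 bases long, and for Uncx the table's start site is not the start that RefSeq's gene table gives. Tbx18 lies at chr9:87731261-87731510 on the minus strand and Uncx at chr5:139543648-139543897 on the plus strand. Capitals mark the same 3 motifs.
Tbx18: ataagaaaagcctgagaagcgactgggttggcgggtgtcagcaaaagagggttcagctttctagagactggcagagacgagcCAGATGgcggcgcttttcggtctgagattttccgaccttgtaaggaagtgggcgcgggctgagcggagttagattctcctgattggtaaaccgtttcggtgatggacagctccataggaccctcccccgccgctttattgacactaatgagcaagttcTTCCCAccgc
Uncx: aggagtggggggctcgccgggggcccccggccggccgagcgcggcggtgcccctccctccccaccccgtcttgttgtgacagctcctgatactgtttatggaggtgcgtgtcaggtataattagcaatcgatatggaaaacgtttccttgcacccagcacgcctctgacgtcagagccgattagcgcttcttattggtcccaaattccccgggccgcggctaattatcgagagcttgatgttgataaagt
Tbx18 held 1 E-box, which begins 168 bases before the start site, and 1 match to TGGGAA on the opposite strand, printed as TTCCCA, which begins 10 bases before it. This Uncx window held 0 matches to the 3 motifs, which says only that the letters are not in it.

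Among forming somite genes all 4 probe sets were higher in Dll3neo pools by sign. Meox1, a homeobox factor of the whole young somite, had ratios of 1.21, 1.30 and 0.931 in Dll3neo pools, against 0.729, 1.07 and 0.906 in wild-type pools. Dll3neo pools 1 and 2 lay above all wild-type pools, and Dll3neo pool 3 lay among them. Meox1 had the widest range of the members, 1.78-fold over the 6 pools, and averaged 1.15 ± 0.191 in Dll3neo and 0.901 ± 0.170 in wild-type pools (SD, n = 3 each). Its log2 difference was 0.35 (interval -0.039 to 0.74), 0.21 without wild-type pool 1 and 0.49 without Dll3neo pool 3. The unadjusted limma p of Meox1 was 0.0723. It was 0.0225 without Dll3neo pool 3, 0.0295 without wild-type pool 2 and above 0.05 without any other single pool. With the replicate number as a block it was 0.0452, and with array weights 0.411. Tcf15 (paraxis), the factor required for somites to become epithelial, had ratios of 1.02, 1.24 and 0.960 in Dll3neo pools, against 0.840, 1.15 and 0.982 in wild-type pools. Its log2 difference of 0.11 (interval -0.22 to 0.45) was 0.0012 without wild-type pool 1, 0.0075 without Dll3neo pool 2, 0.19 without Dll3neo pool 3 and 0.23 without wild-type pool 2. Meox2, the paralog of Meox1 with a later role in sclerotome and limb muscle, was read by 2 probe sets whose medians over the arrays, 0.7855 and 0.6205, lay under 1. In 7.25% of all probe sets the median was more than 0.002 under 1, where a floor appears to have been the divisor in place of the median. Probe set 1424233_at had ratios of 0.783, 0.980 and 0.762 in Dll3neo pools, against 0.765, 0.788 and 0.798 in wild-type pools. Probe set 1424234_s_at, of a type shared between transcripts, had 0.627, 0.722 and 0.601 in Dll3neo pools, against 0.650, 0.614 and 0.549 in wild-type pools. Both were highest in Dll3neo pool 2, and the log2 differences were 0.094 and 0.10. Without Dll3neo pool 2 they were -0.021 and 0.026, and without Dll3neo pool 3 they were 0.16 each. Without wild-type pool 3 that of 1424234_s_at was 0.037.

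**Figure D3:**
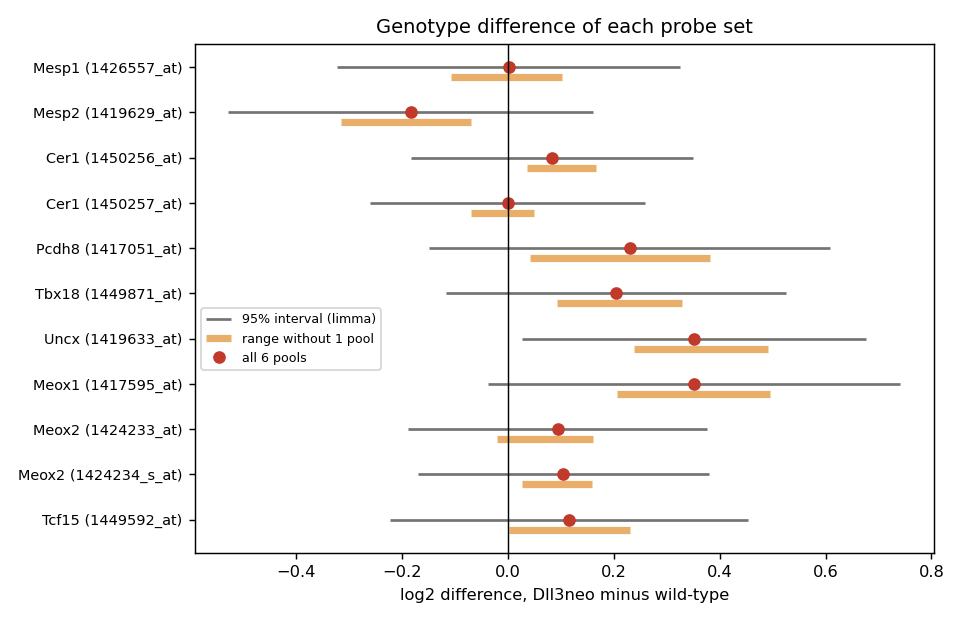
Log2 difference, Dll3neo minus wild-type, of each member probe set (points), with its 95% interval from limma (grey) and the range over the 6 fits that leave out 1 pool (orange). The Uncx interval alone lies to the right of 0, and the orange range crosses 0 for Mesp1, Cer1 1450257_at and Meox2 1424233_at.

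The same pools held the extremes of many members. Dll3neo pool 2 was the highest of the 6 for 6 of the 11 probe sets (Pcdh8, Uncx, Meox1, both of Meox2 and Tcf15), where it was the highest for 15.0% of all probe sets. Wild-type pool 3 was the lowest for 5, where the share over all was 29.3%, and wild-type pool 1 for 4, where it was 21.1%. Wild-type pool 2 was neither highest nor lowest for any member, and over all probe sets it was the highest for only 7.41% and the lowest for only 8.15%. The median log2 ratio of the 4 forming somite probe sets was -0.16, 0.14 and -0.25 in Dll3neo pools 1, 2 and 3, against -0.42, -0.12 and -0.23 in wild-type pools 1, 2 and 3. For the 5 anterior presomitic probe sets it stayed between -0.02 and 0.03 in Dll3neo pools, against -0.05 and 0.03 in wild-type pools. The forming somite medians include both Meox2 probe sets, whose own medians over the arrays (0.7855 and 0.6205) lay under 1. This lowers the forming somite medians, so their level cannot be compared with that of the anterior presomitic medians. The residual SD within genotypes, on the log2 scale, had a median of 0.194 over the members and 0.163 over all probe sets.

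**Figure D4:**
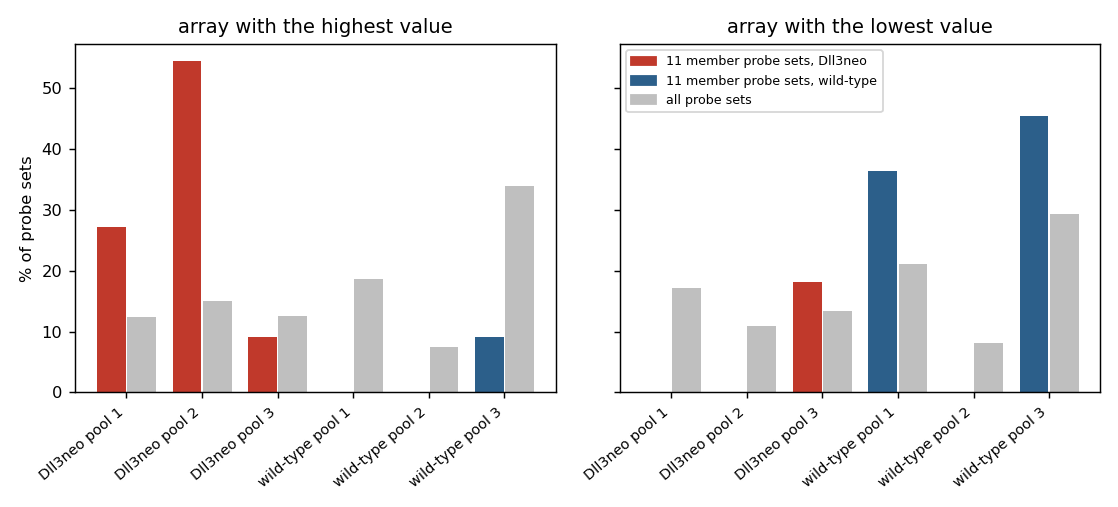
Share of the 11 member probe sets (red for Dll3neo, blue for wild-type) and of all 22626 probe sets (grey) for which each pool held the highest value (left) or the lowest value (right) of the 6. Dll3neo pool 2 is highest for 6 of 11 members, and wild-type pools 1 and 3 together are lowest for 9 of 11.

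Markers of presomitic mesoderm and of later somite derivatives were also described by pool. A list of 10 presomitic markers, of which 9 were measured by 11 probe sets, had median log2 ratios of -0.10, -0.28 and 0.06 in Dll3neo pools 1, 2 and 3, against 0.02, 0.03 and 0.15 in wild-type pools 1, 2 and 3. It was therefore lowest in Dll3neo pool 2, where Meox1, Tcf15 and Uncx were highest. The members' median log2 ratios were 0.01, 0.16 and -0.06 in Dll3neo pools 1, 2 and 3. In wild-type pools 1, 2 and 3 they were -0.25, 0.03 and -0.14. The presomitic medians were above 0 in every wild-type pool, also in pool 2, where the members' median was above 0. Of the presomitic probe sets 10 were lower and 1 higher in Dll3neo pools by sign and 0 passed. There was no overlap for 3 of the 11 (Tbx6, Hes7 and 1 of Lfng), where 5.03% of all probe sets had none, and these 3 belong to the wider list described further on as well. Its largest difference was that of Cdx2, a tail bud homeobox gene, with ratios of 0.978, 0.274 and 1.11 in Dll3neo pools, against 0.871, 1.02 and 1.59 in wild-type pools (probe set 1422074_at). A second Cdx2 probe set, 1422075_at, had 0.905, 0.409 and 1.06 in Dll3neo pools, against 0.965, 1.03 and 1.46 in wild-type pools. Both put Dll3neo pool 2 far below the other pools. Later somite derivatives varied less: of 16 probe sets for 10 of 12 such genes, 9 were higher and 7 lower by sign, 0 passed, and the pool medians lay between -0.09 and 0.03 in Dll3neo, against -0.05 and -0.01 in wild-type pools. Twist1 (0.27) and Pax3 (0.27 by 1430335_a_at, 0.022 by 1420389_at) had the largest log2 differences in it. The part of tissue makeup and of the place of the cut in the members' values was not tested.

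The median log2 difference was -0.0018 for neural tube (15 probe sets), -0.0015 for gut endoderm (13), -0.019 for surface ectoderm (17), 0.044 for endothelium (16) and 0.015 for primitive blood (14). Lateral plate markers had a median of 0.15, with 17 of 20 probe sets higher and 3 lower in Dll3neo pools by sign, the prevailing sign of the members. Their median log2 ratios were 0.04, 0.0 and 0.02 in Dll3neo pools 1, 2 and 3, against -0.16, 0.01 and -0.11 in wild-type pools 1, 2 and 3. Wild-type pool 1 was the lowest for 11 of the 20, where it was the lowest for 21.1% of all probe sets. This was not particular to lateral plate: wild-type pool 1 was also the lowest for 7 of 13 gut endoderm and 7 of 16 endothelium probe sets. Of the 20 lateral plate probe sets 3 had no overlap, where 5.03% of all had none. The part of lateral plate tissue in the members' values was not tested. The median log2 difference was 1.01 for heart muscle, all 17 higher by sign, with Tnnt2 (1.59 by 1418726_a_at) and Myl4 (1.54 by 1422580_at) at the top, both high in Dll3neo pool 1. No probe set of these lists passed. Without Dll3neo pool 1 all 11 member probe sets kept the sign they had with all pools.

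Other genes of segmentation and somite patterning were described from a wider list of 46 genes, of which 41 were measured by 63 probe sets. Dll3 was the 1 probe set that fell, and 0 rose. By sign 26 were higher and 37 lower in Dll3neo pools, with a median log2 difference of -0.042. There was no overlap between genotypes for 7 probe sets of 6 genes, 6 lower and 1 higher, against 5.03% of all. Dll3 itself was among them. Tbx6, the T-box factor that drives Mesp2 in the anterior presomitic mesoderm, had ratios of 0.794, 0.773 and 0.979 in Dll3neo pools, against 1.12, 1.02 and 1.19 in wild-type pools, a log2 difference of -0.39 (interval -0.68 to -0.10). All 3 Dll3neo pools lay below the wild-type pools, where for Mesp2 only pools 1 and 3 did. Lfng, the glycosyltransferase that modulates Notch at the Mesp2 border, had a log2 difference of -0.28 by probe set 1449943_at, without overlap, and of -0.27 by 1420643_at, with overlap. Without Dll3neo pool 2 the value of 1449943_at was -0.16, and without wild-type pool 3 that of 1420643_at was -0.16. Hes7, the clock repressor, had ratios of 0.720, 0.842 and 0.916 in Dll3neo pools, against 1.09, 1.16 and 1.08 in wild-type pools. Nrarp, a feedback inhibitor of Notch, had log2 differences of -0.65 and -0.61 by its 2 probe sets. Itga5, the fibronectin receptor subunit at somite borders, was the 1 gene that was higher without overlap, with ratios of 1.01, 1.13 and 1.13 in Dll3neo pools, against 0.993, 0.920 and 0.765 in wild-type pools (1423267_s_at). Its other probe set, 1423268_at, gave 0.17 with overlap. Without wild-type pool 3 the log2 difference was 0.18 by 1423267_s_at and 0.045 by 1423268_at. None of these apart from Dll3 passed (adjusted p = 0.9999).

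The remaining genes singled out from that list overlapped between genotypes. Epha4, the receptor of the rostral border that acts downstream of Mesp2, had log2 differences of -0.065 and -0.27 by its 2 probe sets, the second -0.16 without wild-type pool 3. Foxc1 had 0.026 and -0.076, and Foxc2, its paralog needed with it for somite formation, had -0.041. Aldh1a2, the retinoic acid synthesis enzyme of somites and anterior presomitic mesoderm, had ratios of 1.04, 1.30 and 0.957 in Dll3neo pools, against 0.731, 1.11 and 0.893 in wild-type pools. Its order of pools was that of Tcf15 at both ends, highest in Dll3neo pool 2 and lowest in wild-type pool 1, as for Meox1. Its log2 difference was 0.28 (interval -0.11 to 0.67), 0.13 without wild-type pool 1 and 0.43 without wild-type pool 2.

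The genes with the most similar values over the 6 arrays were taken by the root mean square difference of log2 ratios, as a description. For Mesp2 they were Snx18 (0.033), Clpx (0.041) and Ccm2 (0.041). Tbx18 was nearest to Pfpl (0.014), Loxl3 (0.037) and Klf2 (0.040). Uncx had no neighbour as close, the nearest being Tec (0.085), Rbfox3 (0.088) and Sparc (0.094). None of these 9 genes is a member, and over 6 arrays and 12393 genes many patterns have close neighbours.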

How the data were processed

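The deposited values are linear ratios: per the values themselves, the authors divided each probe set by its own median over the 6 arrays. Where the median was lower than a floor, that floor appears to have been the divisor. RMA and MAS5 are named, without role or order, in the submitters' processing notes, so background, normalization between arrays, floor and absolute level are unknown. No further normalization was applied, and 64 control probe sets of 22690 were left out. Log2 ratios, with no offset, were compared by a two-sided moderated test of genotype alone (limma 3.58.1, run under R 4.3.3), adjusted by Benjamini-Hochberg over all 22626 probe sets at a threshold of 0.05. Intervals are limma's 95% intervals, unadjusted. The number of arrays limits the precision of every value. Members were taken by platform symbol. Genes of the lists were taken after symbols were updated by Entrez ID through RefSeq (GRCm38.p6), for 20351 of 20380 probe sets with 1 symbol. Another 691 probe sets had several symbols and 1555 had none.

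Members and lists were chosen with earlier results of these data known, so no p is given over a list. Genes outside the set were named by rule: Dll3, genes of the wider list without overlap between genotypes, Epha4, Foxc1, Foxc2, Lfng, Tbx6 and Aldh1a2. The 3 nearest genes of Mesp2, Tbx18 and Uncx were also named, and the largest differences of the presomitic, later somite and heart muscle lists. Other tissue lists were given by medians and counts alone. The test was checked on simulated data with independent noise of the same spread on every array. This check does not cover the unequal spread of the real arrays. Alternatives were centring, quantile normalization, offsets of 1 and 32, leaving out probe sets at the apparent floor, a variance trend, robust variances, array weights, a block for the replicate number, and fits without single pools. Replicate numbers were not used to pair the samples, since no label says that they do. Deviations from the group means correlated at 0.209, 0.0172 and 0.175 between pools numbered 1, 2 and 3. Between pools of unlike number the correlations ran from -0.207 to 0.0825. Whether pools of the same number share a handling step is not known. No pair of arrays shared over 0.486% identical values. Python 3.11.15 with matplotlib 3.10.9 made the plots.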

Additional observations from a re-analysis of the deposited data

How the results depend on the processing

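No member passed the threshold under any alternative that was run. The number of all probe sets past it, 1 with all pools, was 2 with quantile normalization, 0 with log2(ratio + 32), 4 with array weights, and between 0 and 1 when 1 pool was left out. With the replicate number as a block it was 1, and the count at an unadjusted p under 0.05 was 434 against 262 without the block, though not every pool correlated best with its own number. Array weights rested almost wholly on wild-type pool 2 (weight 83.9, against 0.137 to 0.756 for the other 5). The median over the members stayed above 0 under every alternative, from 0.0025 with log2(ratio + 32), which shrinks all values by construction, to 0.17, and between 0.040 and 0.17 without 1 pool. Over genes in place of probe sets it was 0.11. The within-pool difference of Tbx18 and Uncx ran from -0.32 to 0.0045 without 1 pool and was 0.011 with array weights. Of 174 values of single probe sets under alternatives, 15 changed sign. Mesp1 was -0.0028 with centring, -0.076 with quantile normalization, -0.20 with array weights, and -0.11 to 0.10 without 1 pool. Cer1 was -0.089 with array weights and -0.0031 without both pools numbered 1 (an alternative chosen after seeing the data) by 1450256_at, and by 1450257_at 7.7e-05 with log2(ratio + 1), 2.8e-05 with log2(ratio + 32) and -0.071 to 0.048 without 1 pool. Meox2 by 1424233_at was -0.021 to 0.16 without 1 pool, and Tcf15 was -0.091 with array weights. The cause of these changes was not tested. Signal over background is unknown in ratios, so it could not be used to weigh probe sets.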
